A study of Mus musculus with 16 samples.

Results

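B cell identity and receptor signalling genes were followed in lymph node macrophages that had been sorted against a B cell surface marker. The 9 genes were chosen by name: Cd79a and Cd79b, the signalling chains of the B cell receptor; Ms4a1, which encodes CD20; Cd22, an inhibitory co-receptor; Cr2, which encodes the complement receptor CD21; Blnk and Btk, an adaptor and a kinase of receptor signalling; and Ebf1 and Pax5, transcription factors of B cell commitment. All 9 were found among the 55423 rows of the count table, and all 9 passed the filter on low counts that left 21085 genes. In 5 of them (Btk, Cd79b, Blnk, Cd22 and Ms4a1) the mean normalized count was over 100 per lane. The other 4 lay under that cut-off, which a gene had to exceed to be called.

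When antigen binds the B cell receptor, kinases of the Src family phosphorylate the tails of CD79A and CD79B, SYK is recruited, and BLNK then holds BTK and phospholipase C together so that calcium and NF-κB signalling follow. CD22 dampens this signal by recruiting the phosphatase SHP-1, whereas CD21, in a complex with CD81, amplifies it when the antigen carries complement. EBF1 and PAX5 switch on most of these genes in B cell precursors. Several of the components are also used outside the B lineage: BTK works in myeloid cells, and CD21 is abundant on follicular dendritic cells of the lymph node.

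The samples were subcapsular sinus macrophages (SSMs, CD11c- with low side scatter) and medullary sinus macrophages (MSMs, CD11c+ with high side scatter). Both were gated as live CD45+ CD3- B220- Ly6G- CD11b+ CD169+ cells. They came from the tumor-draining (tdLN) and non-draining (ndLN) lymph nodes of C57B/6 male mice 2 weeks after the flank had received MOC2 cells, a squamous cell carcinoma line, so every group came from tumor-bearing mice and the age of the mice was not given. Each pool combined nodes of 2 mice, 2 in the case of tdLN and 6 in the case of ndLN. It gave 1 SSM and 1 MSM library per type of node, which left 2 libraries in each of the 4 groups. The ndLN were inguinal, axillary and brachial nodes of the other side, whereas the tumor cells were placed near the inguinal node. Tumor drainage and the mix of node sites therefore cannot be told apart.

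Each library held between 42972328 and 48130352 reads on genes, so that a floor of 3 reads corresponded to 0.0623 to 0.0698 CPM (the read count scaled to a library of fixed size) before scaling between libraries. Levels are given below as CPM scaled further by the trimmed mean of M values (TMM), and p-values come from the quasi-likelihood test of edgeR, adjusted by the Benjamini-Hochberg method over all 21085 genes. The gates were compared with 3 lists of transcripts. Ptprc, which encodes CD45 and its B220 form alike, was at 1149 to 2590 CPM and could not show whether the B220 gate held. The 8 T cell genes on the list were called higher in SSMs from both types of node, with a summed level of 749 to 1411 CPM in SSMs and 26.7 to 181 CPM in MSMs. Siglec1, which encodes CD169, was at 8.47 to 70.0 CPM in SSMs and at 0.795 to 5.96 CPM in MSMs, although both subsets were gated as CD169+. The macrophage genes Csf1r, Lyz2 and Cd68 were detected in every library, at no less than 134 CPM.

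Sequences upstream of the RefSeq start are shown for Btk and Cd22, the members called between SSMs and MSMs from ndLN. They were read from the RefSeq promoter table (build GRCm38.p6), which held 7 of the 9 members and lacked Cd79b and Ms4a1. Both genes lie on the minus strand, and each sequence runs 5′ to 3′ and ends at the base before the RefSeq start. For Btk all 250 bases are given (chrX:134583141-134583390). For Cd22 the 148 bases nearest the start that no annotated exon covers are given (chr7:30879029-30879176). In the GENCODE annotation both genes begin farther upstream, Btk at chrX:134583570 and Cd22 at chr7:30880342. Both stretches therefore lie inside the genes as annotated there. Capitals mark a match to TCCC, any 2 bases and GGGA, the palindrome that EBF1 is known to bind.
Btk: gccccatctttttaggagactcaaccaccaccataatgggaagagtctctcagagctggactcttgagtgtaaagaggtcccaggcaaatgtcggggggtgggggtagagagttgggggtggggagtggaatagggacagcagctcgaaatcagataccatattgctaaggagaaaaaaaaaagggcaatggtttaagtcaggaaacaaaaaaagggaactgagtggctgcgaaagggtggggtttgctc
Cd22: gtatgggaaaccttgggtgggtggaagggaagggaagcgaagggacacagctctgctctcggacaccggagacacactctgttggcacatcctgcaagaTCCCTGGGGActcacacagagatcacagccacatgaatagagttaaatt

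The palindrome was found 40 to 49 bases before the RefSeq start of Cd22. It was found in 0.779% of the 32851 promoters of the table, counting 250 bases before the start and both strands. The E-box CAGGTG was found before Blnk, Cd22, Cd79a and Cr2 and in 17.2% of all promoters. The octamer ATTTGCAT was found before Blnk and in 1.6% of all promoters, and GAGGAAGT, a form of the PU.1 site, was found before no member and in 2.44% of all promoters. Motifs were chosen with the sequences at hand, and a match describes letters and not a bound site.

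The signalling chains of the receptor were compared first, since the receptor needs both to reach the surface. Cd79b was measured at 10.9 and 13.8 CPM in SSMs from ndLN (pool 1 and pool 2 in this and the following sentences), 22.8 and 21.8 CPM in SSMs from tdLN, 5.69 and 7.22 CPM in MSMs from ndLN, and 10.1 and 5.64 CPM in MSMs from tdLN. The SSM libraries were above the MSM libraries within each type of node, and the highest levels were those of SSMs from tdLN. Its fitted log2 fold change of SSMs over MSMs was 1.51 ± 0.31 (SE, n = 2 libraries per group) in tdLN, with an adjusted p of 0.0135 in edgeR's test, and 0.93 ± 0.32 in ndLN, with an adjusted p of 0.0811. Neither passed the threshold of 0.01. Without the pool as a replicate block, the comparison from tdLN passed it.

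Cd79a was measured at 4.89 and 4.53 CPM in SSMs from ndLN, 2.89 and 3.00 CPM in SSMs from tdLN, 3.97 and 9.69 CPM in MSMs from ndLN, and 2.50 and 2.03 CPM in MSMs from tdLN. The MSM library of pool 2 from ndLN stood above the rest, and the SSM levels from ndLN fell between those of the MSM libraries. The log2 fold change between SSMs and MSMs was -0.51 ± 0.40 in ndLN (adjusted p = 0.400, edgeR) and became 0.30 without that MSM library. In tdLN it was 0.39 ± 0.52 (adjusted p = 0.699). The share of 50-base windows of Cd79a transcripts that occur in other genes was 8.31%, so that some of its reads may be shared, whereas it was 0 for Cd79b.

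The levels of the chains therefore did not keep one ratio. Per kilobase of exon, the level of Cd79b was 7.40 and 8.04 times that of Cd79a in SSMs from tdLN and 2.27 and 3.10 times in SSMs from ndLN. In MSMs the ratio per kilobase was 1.46 and 0.758 in ndLN and 4.13 and 2.83 in tdLN. The highest ratio was 10.6 times the lowest. Across the 8 libraries, log2(CPM + 1) of Cd79a and Cd79b had a Pearson r of -0.19, a description over libraries that share groups and pools.

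**Figure D1:**
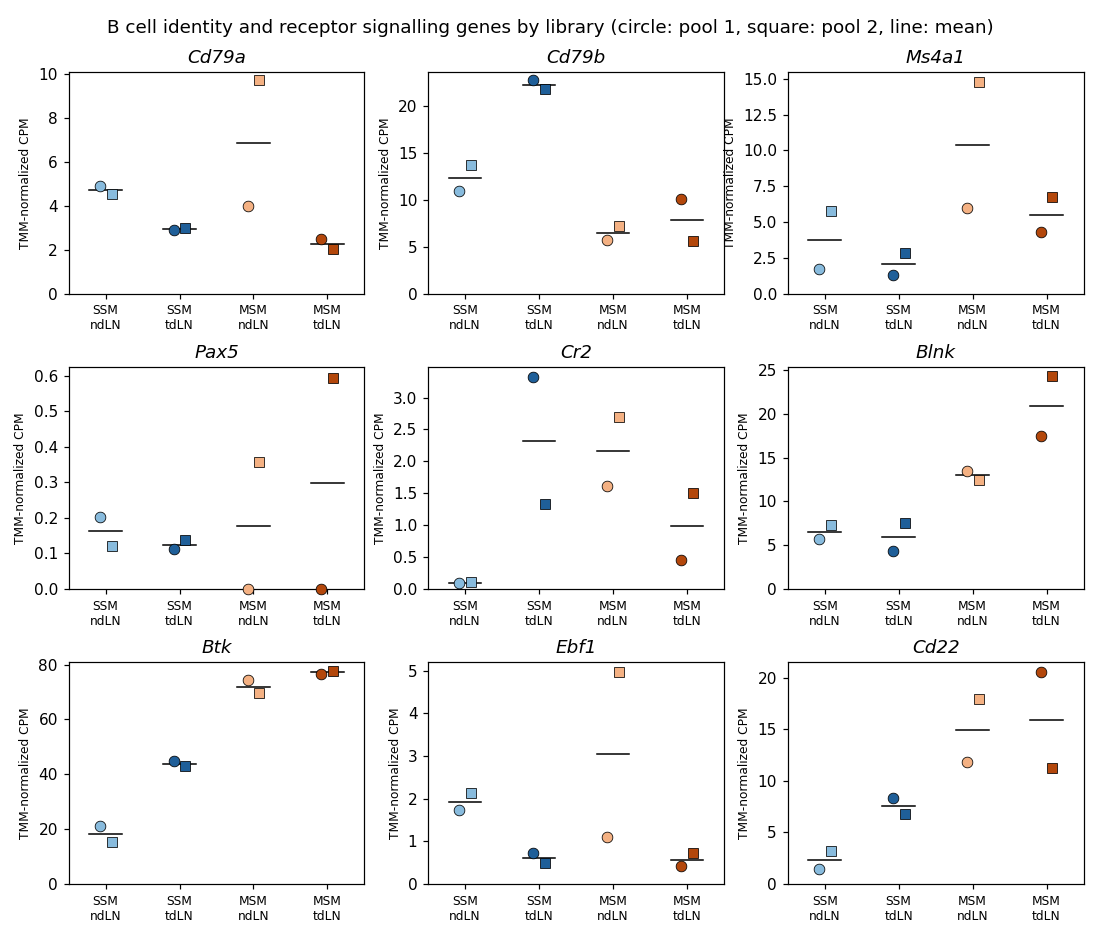
TMM-normalized CPM (vertical axes, linear from 0) of the 9 genes in the 8 libraries, grouped by subset and type of node; circles are pool 1, squares are pool 2 and lines are group means. Btk separated SSMs from ndLN (15.5 CPM and 21.02 CPM), SSMs from tdLN (42.9 and 44.9 CPM) and MSMs (69.7 to 77.8 CPM), whereas Cd79a, Ms4a1 and Ebf1 had their highest level in the MSM library of pool 2 from ndLN.

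Among the surface proteins, Cd22 differed between the subsets from ndLN. Its level was 1.43 and 3.19 CPM in SSMs from ndLN, 8.39 and 6.83 CPM in SSMs from tdLN, 11.8 and 18.0 CPM in MSMs from ndLN, and 20.6 and 11.3 CPM in MSMs from tdLN. The 4 SSM libraries were all below the 4 MSM libraries. The log2 fold change in ndLN was -2.71 ± 0.49 (adjusted p = 0.00575, edgeR), a mean 6.44 times higher in MSMs. The call was lost when any 1 library of SSMs from ndLN, MSMs from ndLN or SSMs from tdLN was left out, with an adjusted p of up to 0.0599, and it was kept without either library of MSMs from tdLN. In tdLN the log2 fold change was -1.06 ± 0.41 (adjusted p = 0.144), and from ndLN to tdLN in SSMs it was 1.73 ± 0.52 (adjusted p = 0.0855). An antisense gene of uncertain function, Gm29439, overlaps 9.5% of the exonic length of Cd22, and 7.84% of its windows occur in other genes; the strand setting of the counting was not given, so reads of the overlapping genes could not be told apart.

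Ms4a1, a membrane protein restricted to the B lineage in most tissues, was measured at 1.69 and 5.76 CPM in SSMs from ndLN, 1.32 and 2.82 CPM in SSMs from tdLN, 5.95 and 14.8 CPM in MSMs from ndLN, and 4.31 and 6.71 CPM in MSMs from tdLN. In each of the 4 groups the library of pool 2 was the higher, and the subsets did not overlap within either type of node. The log2 fold changes of SSMs over MSMs were -1.51 ± 0.32 in ndLN (adjusted p = 0.0124, edgeR) and -1.44 ± 0.39 in tdLN (adjusted p = 0.0444), both short of the threshold.

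Cr2 had the widest range, as a ratio of highest to lowest, among the members that were detected in all libraries. SSMs from ndLN held 5 reads in each library, or 0.0920 and 0.101 CPM, whereas SSMs from tdLN held 148 and 58 reads, or 3.32 and 1.33 CPM. MSMs held 63 and 121 reads in ndLN (1.62 and 2.70 CPM) and 19 and 68 reads in tdLN (0.461 and 1.50 CPM). SSMs from ndLN thus lay below every other library. The log2 fold change from ndLN to tdLN in SSMs was 4.56 ± 1.01 (adjusted p = 0.0242, edgeR), and that of SSMs over MSMs in ndLN was -4.46 ± 1.04 (adjusted p = 0.0132). Cr2 was under the mean count cut-off and neither comparison passed the adjusted p threshold. The difference between the node effects in SSMs and MSMs was 5.69 ± 1.24 on the log2 scale, with an adjusted p of 0.0787.

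Since follicular dendritic cells carry CD21, 10 genes of these and other stromal cells were summed. The sums were 163 and 266 CPM in SSMs from ndLN, 204 and 374 CPM in SSMs from tdLN and 249 to 377 CPM in MSMs. Their largest parts were Mfge8 and Clu, so the sums mainly follow these genes. In SSMs Mfge8 held 109.5 and 168 CPM in ndLN and 83.6 and 134 CPM in tdLN. Clu held 31.2 and 59.8 CPM in SSMs from ndLN and 62.5 and 113 CPM in SSMs from tdLN. Cxcl13, the chemokine that draws B cells into follicles, was at 10.6 and 8.95 CPM in SSMs from ndLN and at 27.7 and 90.5 CPM in SSMs from tdLN. The library with the higher Cxcl13 of SSMs from tdLN was the one with the lower Cr2, an order that rests on 2 libraries. In MSMs from ndLN, Coch and Lum were at 0 CPM in both libraries and Col1a2 at 0.0256 and 0 CPM. Dcn was at 5.31 and 2.92 CPM there, beside 1.62 and 2.70 CPM of Cr2. Of the 10 genes, Clu was called in the comparison of SSMs with MSMs from ndLN, with a log2 fold change of -1.74 ± 0.26 (adjusted p = 0.00233, edgeR). No other gene of the list was called by edgeR in any comparison, while the DESeq2 Wald test called 2 of the 10 between nodes in SSMs. The part of such cells in the level of Cr2 was not tested. In sorted bulk samples, fewer cells of a type and less RNA per cell cannot be told apart.

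Btk and Blnk, which act inside the cell below the receptor, were each called between the subsets in 1 type of node, Btk in ndLN and Blnk in tdLN. Btk was measured at 21.02 and 15.5 CPM in SSMs from ndLN, 44.9 and 42.9 CPM in SSMs from tdLN, 74.2 and 69.7 CPM in MSMs from ndLN, and 76.7 and 77.8 CPM in MSMs from tdLN. Neither the SSM groups nor the subsets overlapped. In ndLN the log2 fold change of SSMs over MSMs was -1.98 ± 0.18 (adjusted p = 2.32e-04, edgeR), a mean 3.94 times higher in MSMs. It stayed past the threshold in each of the 8 fits that left out 1 library, with adjusted p-values between 0.0011 and 0.0045. In tdLN the log2 fold change was -0.82 ± 0.17 with an adjusted p of 0.0141, which passed without the replicate block.

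In SSMs, Btk rose from ndLN to tdLN by 1.27 ± 0.18 on the log2 scale, a 2.41-fold higher mean (adjusted p = 0.00619, edgeR). This call was lost whichever of the 8 libraries was left out, with adjusted p-values between 0.013 and 0.0883, while the log2 fold change stayed between 1.08 and 1.48. In MSMs the change was 0.10 ± 0.16 (adjusted p = 0.865). The difference between these node effects was 1.17 ± 0.24, with an adjusted p of 0.0846, and did not pass.

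Blnk was measured at 5.68 and 7.32 CPM in SSMs from ndLN, 4.28 and 7.54 CPM in SSMs from tdLN, 13.5 and 12.5 CPM in MSMs from ndLN, and 17.5 and 24.4 CPM in MSMs from tdLN. All 4 MSM libraries were above all 4 SSM libraries, and the SSM groups overlapped. In tdLN the log2 fold change of SSMs over MSMs was -1.83 ± 0.27 (adjusted p = 0.00322, edgeR), a mean 3.54 times higher in MSMs. The call was lost without any 1 of the 4 libraries from tdLN, with an adjusted p of up to 0.0531. In ndLN the log2 fold change was -1.01 ± 0.27 (adjusted p = 0.0331).

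The transcription factors were among the lowest members. Ebf1 was measured at 1.73 and 2.12 CPM in SSMs from ndLN, 0.718 and 0.481 CPM in SSMs from tdLN, 1.10 and 4.97 CPM in MSMs from ndLN, and 0.412 and 0.727 CPM in MSMs from tdLN. The 4 libraries from tdLN were all below the 4 from ndLN. The log2 fold changes from ndLN to tdLN were -1.69 ± 0.73 in SSMs (adjusted p = 0.222, edgeR) and -2.39 ± 0.70 in MSMs (adjusted p = 0.242), neither of which passed.

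Pax5, which maintains B cell identity, was detected at 11 and 6 reads in SSMs from ndLN, 5 and 6 reads in SSMs from tdLN, 0 and 16 reads in MSMs from ndLN, and 0 and 27 reads in MSMs from tdLN. Its highest level was 0.594 CPM, with an exact 95% Poisson interval of 0.392 to 0.865 CPM that covers counting error only. For the counts of 0, the same interval reached up to 0.0946 CPM in the MSM library of pool 1 from ndLN and 0.0894 CPM in that from tdLN, where the floor of 3 reads stood at 0.0769 and 0.0727 CPM. The 2 MSM groups thus each held a library without a read and a library with more reads than any SSM library. No difference between groups was detectable at this depth, with adjusted p-values of 0.656 or more in edgeR's test. Genes on the opposite strand, 5730488B01Rik and Gm12462, overlap 8.6% of its exonic length.

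Counted over the members, 2 of 9 (Btk and Cd22) were called lower in SSMs from ndLN, relative to MSMs. Of all genes tested, 12.1% were called there in either direction, with 1278 of the 2545 lower. In tdLN 1 of 9 (Blnk) was called lower, against 8.69% of all genes called in either direction (744 of the 1833 lower). Called higher were 0 by edgeR in either type of node, although Cd79b was higher at an unadjusted p of 0.0229 in ndLN and 0.00139 in tdLN. From ndLN to tdLN in SSMs 1 of 9 (Btk) was called higher. Called there in either direction were 3.03% of all genes, with 418 of the 639 higher. These shares rest on 1 or 2 genes and do not set the list apart from all genes. The median log2 fold change of SSMs over MSMs was -1.01 over the members and 0.09 over all genes in ndLN, and -0.82 over the members and 0.02 over all genes in tdLN. When the pool was not entered as a replicate block, 3 members (Blnk, Btk and Cd79b) were called in tdLN in place of 1.

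From ndLN to tdLN in MSMs, 0 members were called by edgeR, where 0.0237% of all genes were. At an unadjusted p under 0.05 there were 4, namely Cd79a (log2 fold change -1.59 ± 0.46), Ebf1 (-2.39 ± 0.70), Ms4a1 (-0.86 ± 0.31) and Blnk (0.67 ± 0.25). The DESeq2 Wald test on libraries called 0 and the DESeq2 likelihood ratio test on lanes 2. For the interaction of subset and node 0 members were called by edgeR, where 0.0379% of all genes were, and 3 (Cr2, Btk and Cd22) had an unadjusted p under 0.05. The DESeq2 Wald test called 1 member (Btk), and 3 were called by likelihood ratio on lanes.

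**Figure D2:**
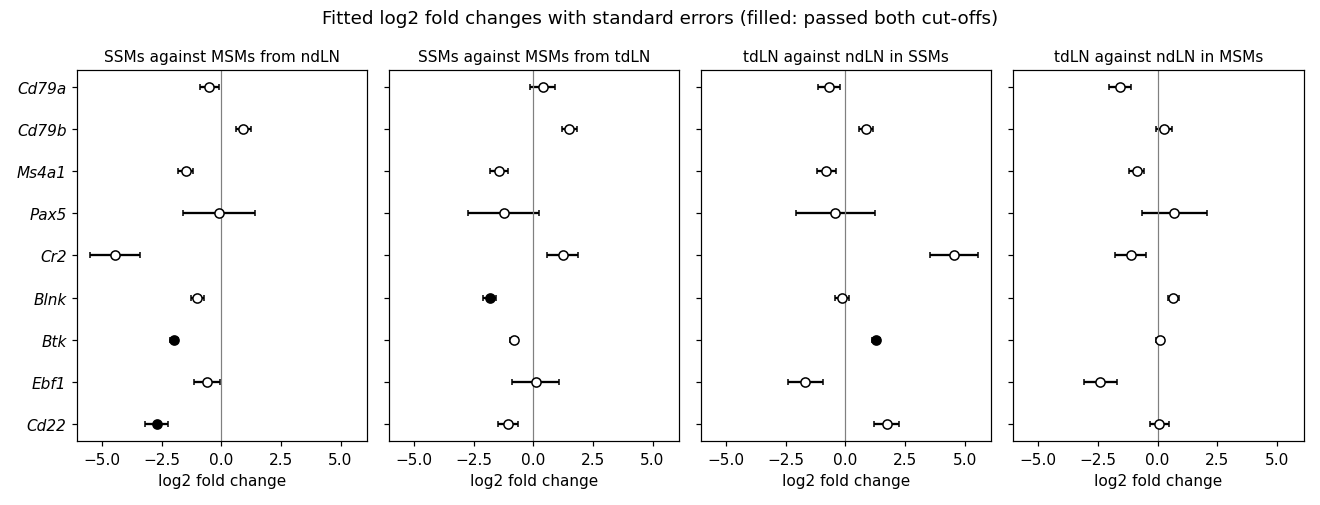
Fitted log2 fold changes (horizontal axes) of the 9 genes in 4 comparisons, with bars for 1 standard error; filled points passed an adjusted p of 0.01 and a mean normalized count of 100. The filled points are Btk (-1.98) and Cd22 (-2.71) in ndLN, Blnk (-1.83) in tdLN and Btk (1.27) between nodes in SSMs, and the widest bars are those of Pax5.

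The levels of the members relative to each other differed between libraries. Per kilobase of exon, the mean level over all libraries was highest for Btk (16.8 CPM per kb) and Cd79b (8.56 CPM per kb), although within SSMs the mean level of Cd79b was above that of Btk (8.63 against 5.799 CPM per kb in ndLN and 15.6 against 13.9 CPM per kb in tdLN). Over all libraries these were followed by Cd79a (2.87), Cd22 (2.02), Blnk (1.93) and Ms4a1 (0.876). Cr2 (0.171), Ebf1 (0.157) and Pax5 (0.0215) were lowest. Cd79a, Cd22 and Blnk, whose means are neighbours, overlapped in their ranges over libraries. The per-kilobase ratio of Cd22 to Cd79a ranged from 0.0847 in a library of SSMs from ndLN to 2.38 in a library of MSMs from tdLN, and that of Btk to Cd79a from 1.58 to 17.8 in the same groups.

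Across the 8 libraries, the members fell into pairs with alike and with opposite patterns on the scale of log2(CPM + 1). Cd79a and Ebf1 had a Pearson r of 0.95, which was 0.84 without the MSM library of pool 2 from ndLN. Btk and Cd22 had an r of 0.91, also without that library. Cd79b had an r of -0.79 with Blnk and -0.69 with Ms4a1. Cd79a and Cd22 had an r of -0.08 with all libraries and -0.77 without the one named. The libraries share groups, pools and scaling, so the values are descriptions.

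**Figure D3:**
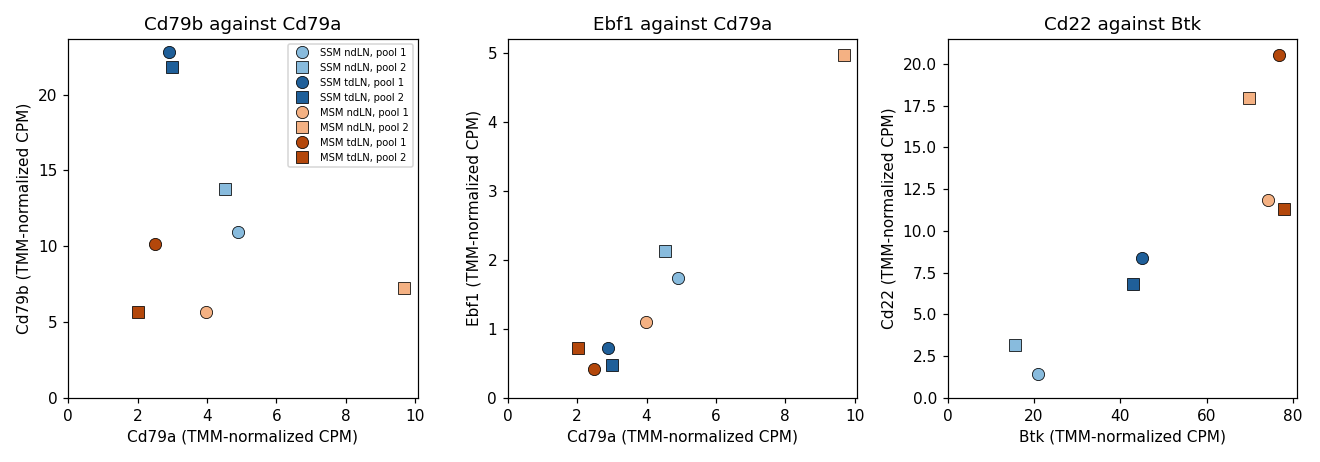
TMM-normalized CPM of Cd79b against Cd79a, Ebf1 against Cd79a and Cd22 against Btk (linear axes from 0), 1 point per library, with colours for the 4 groups and shapes for the pools. SSMs from tdLN stand at 21.8 and 22.8 CPM of Cd79b with 2.89 and 3.00 CPM of Cd79a, and the point farthest out in the middle panel (9.69 CPM of Cd79a, 4.97 CPM of Ebf1) is the MSM library of pool 2 from ndLN.

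Among 9991 other genes with a mean normalized count over 100, those with patterns most like Btk were Htr7, Gm6377, Myadm, Tifab and H2-Aa (Pearson r of 0.994 to 0.996 over 8 libraries). For Cd79b they were Mex3d, Mtus1, Csf1r and Dirc2 (r of 0.971 to 0.980), of which Csf1r encodes the receptor for macrophage colony-stimulating factor. For Blnk they were 2700097O09Rik, Lad1, Ift43, Arhgef40 and Nudt17 (0.980 to 0.993), and for Cd22 Wdr92, Haus8, Ccdc90b, Dnajc2 and Farsb (0.971 to 0.984). For Cd79a they were Rpp14, Suz12, Snhg17 and Ubn1 (0.921 to 0.969), and for Ebf1 Ttll5, Ubn1, Rida, Nol9 and Atm (0.925 to 0.957). For Ms4a1 they were Cep290, Endov, 2700099C18Rik, Vegfb and Adprhl2 (0.934 to 0.952), for Cr2 Naa20, Tceal8, Lztfl1, Tyw1 and Smn1 (0.917 to 0.966), and for Pax5 Setd5, Lcmt1, Txlng, Yeats4 and Sft2d3 (0.846 to 0.935). None of these genes was on the list of other B cell markers.

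The 18 other genes known as B cell markers moved in both directions. In ndLN, SSMs had 3 called higher and 4 called lower relative to MSMs, and 11 were not called. Blk, a Src family kinase of the receptor, was higher in SSMs by 4.51 ± 0.35 on the log2 scale (adjusted p = 1.16e-04, edgeR), at 100.2 and 141.8 CPM against 2.33 and 8.40 CPM. Fcrla, an intracellular Fc receptor-like protein of B cells, was lower by -5.40 ± 0.42, and H2-Ob, a chain of the class II modulator H2-O, by -5.38 ± 0.17. Tnfrsf13c, the receptor for the survival factor BAFF, was lower by -3.53 ± 0.36. The levels of H2-Ob were 9.69 and 12.1 CPM in SSMs and 447.7 and 458.1 CPM in MSMs.

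In tdLN 1 of the 18 was called higher (Blk, 6.15 ± 0.43) and 3 were called lower in SSMs (H2-Ob -4.80, Fcrla -3.62 and Tnfrsf13c -2.80). From ndLN to tdLN in SSMs, Tnfrsf13b, a second BAFF family receptor, rose by 1.37 ± 0.19 (adjusted p = 0.00619, edgeR) and Cxcr5, the receptor for CXCL13, fell by 2.32 ± 0.21 (adjusted p = 0.00196). In MSMs 0 of the 18 were called between nodes by edgeR, with 9 at an unadjusted p under 0.05 and 3 called by the DESeq2 Wald test. The median log2 fold change of SSMs over MSMs across the 18 was -0.44 in ndLN and -0.13 in tdLN, beside 0.09 and 0.02 over all genes.

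The summed level of the 18 markers was 729 and 768 CPM in SSMs from ndLN and 630 and 690 CPM in SSMs from tdLN. In MSMs it was 872 and 864 CPM in tdLN, and 2201 and 1114 CPM in ndLN. H2-Ob alone held 278 and 271 CPM of it in MSMs from tdLN and 448 and 458 CPM in MSMs from ndLN. In SSMs H2-Ob held 9.33 to 12.1 CPM, so the sums do not rank the 18 markers as a set. The highest sum, in pool 1 of MSMs from ndLN, contained 1460 CPM of Ighm, the heavy chain of IgM, which stood at 182 to 312 CPM in the other 7 libraries. Jchain, which joins IgM and IgA into polymers, was also highest there, at 107.5 CPM against 1.92 CPM in pool 2 of the same group. The library with the highest Cd79a, Ms4a1 and Ebf1 was pool 2 of that group. None of the 18 markers was at or under 3 reads in all libraries. The sort excluded B220+ cells, and the part of remaining B cells in the levels of the members was not tested.

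The 7 genes of plasma cells were led by Sdc1, which encodes CD138 and was higher in SSMs by 4.93 ± 0.34 in ndLN and by 4.74 ± 0.35 in tdLN, and by Prdm1, a repressor of the B cell programme, higher by 1.05 ± 0.20 and 2.05 ± 0.20. Prdm1 also rose from ndLN to tdLN in SSMs, by 1.63 ± 0.19. Mzb1 and Tnfrsf17, which mark plasma cells more narrowly, were at no more than 0.642 and 0.487 CPM. The 5 genes besides Sdc1 and Prdm1 were called between the subsets in neither type of node. In ndLN the log2 fold changes of these 5 were all under 0. The median log2 fold change of SSMs over MSMs across the 7 was -0.46 in ndLN and 1.43 in tdLN. Of 6 genes of plasmacytoid dendritic cells, which can express B lineage genes, Ccr9 was called lower in SSMs. Its log2 fold change was -2.98 ± 0.41 in ndLN and -2.97 ± 0.43 in tdLN. The other 5 were not called in either type of node, and the median across the 6 was -0.45 in ndLN and -0.10 in tdLN. The sum of the 6 was 64.9 to 86.1 CPM in SSMs and 89.3 to 129 CPM in MSMs. Its largest part in every library was Tcf4, at 48.9 to 73.7 CPM, whereas Siglech was at 3.69 to 10.7 CPM. Ccr9 itself held 2.98 to 7.05 CPM of the sum in SSMs and 27.2 to 49.1 CPM in MSMs. The part of these cells in the levels of the members was not tested.

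Of 6 mast cell and basophil genes, 3 were called higher in SSMs from ndLN (Cpa3, Cma1 and Fcer1a), and in tdLN 3 were called higher (Mcpt8, Cpa3 and Cma1) and Kit was called lower, by -2.25 ± 0.23. Cpa3, a mast cell protease, was at 36.1 to 562 CPM in SSMs and at most 0.330 CPM in MSMs. In SSMs, Mcpt8, a basophil protease, rose from ndLN to tdLN by 3.06 ± 0.38, whereas Cpa3 fell by 2.69 ± 0.47 and Kit, a receptor of mast cells and progenitors, fell by 2.61 ± 0.23. Btk is used in mast cells as well, and the part of these cells in its level was not tested.

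Of 13 transcription factors that act in B cells beside Ebf1 and Pax5, 3 were called higher and 4 lower in SSMs relative to MSMs in ndLN, as were 2 and 3 in tdLN. Ikzf3, which encodes Aiolos, was higher by 6.20 ± 0.23 in ndLN and by 6.42 ± 0.25 in tdLN. Pou2af1, a co-activator of octamer-binding factors, was higher by 3.82 ± 0.72 in ndLN (adjusted p = 0.00712, edgeR). Bcl11a, needed for early B cells and for plasmacytoid dendritic cells, was lower by -2.74 ± 0.23 in ndLN and -1.57 ± 0.19 in tdLN. Spi1, which encodes PU.1, was lower by -2.25 ± 0.14 in ndLN. Foxo1 (1.76) and Irf8 (-1.64) were the other factors named in tdLN, and 1 further gene, Spib (-1.44), was called there. From ndLN to tdLN in SSMs, Bcl11a rose by 1.85 ± 0.24, Spi1 rose by 1.32 ± 0.14, and Ikzf3 fell by 1.19 ± 0.17, while 0 factors were called in MSMs by edgeR, with 4 at an unadjusted p under 0.05 and 1 called by the DESeq2 Wald test. The median log2 fold change of SSMs over MSMs across the 13 was -0.02 in ndLN and -0.37 in tdLN.

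Of 16 activating components below the receptor, 2 were called higher and 5 lower in SSMs from ndLN, and 3 higher and 3 lower in tdLN. Rasgrp3, which activates Ras downstream of diacylglycerol, was lower in SSMs by -5.96 ± 0.57 in ndLN and -6.07 ± 0.61 in tdLN, at 0.405 to 3.07 CPM in SSMs and 82.0 to 124 CPM in MSMs. Cd81, a partner of CD21, was lower by -2.34 ± 0.19 and -2.84 ± 0.20, and Dapp1, an adaptor that binds phosphoinositides, by -1.95 ± 0.13 and -1.06 ± 0.13. Itpr2, a calcium release channel, was higher by 2.26 ± 0.18 and 1.38 ± 0.18. Syk and Plcg2, the kinase and the phospholipase on either side of Blnk and Btk, were not called in ndLN, and Syk was called higher in SSMs from tdLN. From ndLN to tdLN in SSMs, Lyn alone was called among the 16, with a rise of 0.76 ± 0.12 (adjusted p = 0.00872, edgeR). The median log2 fold change of SSMs over MSMs across the 16 was -0.41 in ndLN and 0.21 in tdLN.

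Of 10 inhibitory components, 3 were called higher and 2 lower in SSMs from ndLN, and 6 higher and 1 lower in tdLN. Siglecg, which encodes a relative of CD22, was lower in SSMs by -2.02 ± 0.40 in ndLN and by -2.31 ± 0.42 in tdLN. The adaptor gene Dok3 was higher by 1.91 ± 0.35 and 2.73 ± 0.34, and Ceacam1 by 1.69 ± 0.26 and 1.75 ± 0.25. Ptpn22, a phosphatase, was higher by 1.39 ± 0.17 in ndLN. The median log2 fold change across the 10 was -0.19 in ndLN and 0.92 in tdLN. From ndLN to tdLN in SSMs, 3 of the 10 rose. They were Fcgr2b, the inhibitory Fc receptor (2.44 ± 0.23), Pirb (1.94 ± 0.13) and Ptpn6, which encodes the SHP-1 that CD22 recruits (1.37 ± 0.13). Fcgr2b was at 157 and 89.4 CPM in SSMs from ndLN and at 686 and 624 CPM in SSMs from tdLN. These genes are also used by myeloid cells, and the macrophage genes Siglec1, Cd68 and Csf1r were called higher in the same comparison. In MSMs, 0 activating and 0 inhibitory genes were called between nodes by edgeR, where 6 and 4 had an unadjusted p under 0.05 and the DESeq2 Wald test called 0 and 1.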

How the data were processed

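RNA was made into libraries with the SMART-Seq v4 kit. The submitters' processing notes name bcl2fastq 2.20.0.422, Trimmomatic 0.36, STAR 2.5.3a and GRCm38, and the authors deposited raw counts per gene in 16 columns, without normalization. The strand setting and counting mode were not given in the sources used here. The 8 libraries were each sequenced on lanes 3 and 4, and the lanes were summed because their counts differed by no more than sampling noise (chi-square per degree of freedom 0.955 to 1.02, against 29.3 to 53.1 between libraries of a group). The number of unused columns was 0. Symbols for 55240 of 55423 IDs, coordinates and overlaps come from GENCODE M21.

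A gene was kept if its counts summed to 10 or more and were above 0 in 2 or more of the 16 columns. Counts were fitted in edgeR 4.0.16 (R 4.3.3) with TMM scaling, group and pool over all 8 libraries, and tested by its quasi-likelihood test, with p-values adjusted after Benjamini and Hochberg. The call required an adjusted p under 0.01 and, per lane, a mean normalized count over 100, about 4.41 CPM. The steps were tested on simulated counts. Pool numbers in the labels mark SSM and MSM libraries sorted from the same nodes (1 SSM library from tdLN has its number in the source name and none in the title), whereas the study's methods speak of 4 pools. Deviations of same-numbered libraries from their group means correlated between -0.193 and 0.148 over 10000 genes. P-values rest on the spread left between libraries of a group once a pool difference shared by all groups is removed. That spread is estimated over the 4 groups of 2 libraries, with information shared across genes. DESeq2 1.42.0 served for alternatives, and pandas 2.3.3, numpy 2.4.6, matplotlib 3.10.9 and scipy 1.17.1 under Python 3.11.15 for the rest.

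The members and lists were chosen with earlier results of these data known. All 9 members are described. Of each other list, the genes named are up to 4 called genes with the largest fold change in a comparison. Other list genes were picked once their values were known. They were Cxcl13, Mfge8, Coch, Lum, Col1a2, Dcn, Ighm, Jchain, Syk, Plcg2, Mzb1, Tnfrsf17, Spib, Tcf4, Siglech, Ptprc, Lyz2 and the sort markers. The 5 genes most like each member have the highest Pearson r of log2(CPM + 1). A few genes that these rules select are not reported here.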

Additional observations from a re-analysis of the deposited data

How the results depend on the processing

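Over 885 refits of a member's fold change, 28 changed sign, 24 lost a call and 36 gained one. The 28 were all of members not called in that comparison. Pax5 was given no fold in 6 fits whose remaining library held no read.

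Members called in ndLN (2) became 5 with the likelihood ratio test on lanes, 3 by the DESeq2 Wald test and 3 on lane 3 alone (both adding Ms4a1), 1 with only the groups compared, 0 with Holm adjustment, 5 at an adjusted p of 0.05 without the mean cut-off, and 1 to 2 with a library left out. In tdLN (1) they became 3 with no replicate block, 4 by the DESeq2 Wald test, 5 on lanes, 3 with at least 10 counts in at least 2 libraries, 3 on lane 4 alone, 0 with Holm, 4 at 0.05, and 0 to 2 with a library left out. Between nodes in SSMs (1) they became 4 on lanes, 0 with only the groups compared, 0 with Holm, 2 at 0.05, and 0 in every fit without a library. Between nodes in MSMs (0) they became 2 on lanes, and in the interaction (0) 1 by the Wald test and 3 on lanes. The other replicate block comparisons kept their counts. Lanes treated as samples count 1 library as 2. Fewer samples or Holm leave less power by construction, and the cut-off of 0.05 can only add calls. The cause of the other shifts was not tested. Over all genes, the calls in ndLN ranged from 207 (Holm) to 6093 (lanes) around 2545, in tdLN from 108 to 5374 around 1833, between nodes in SSMs from 0 to 4604 around 639, between nodes in MSMs from 0 to 2589 around 5, and in the interaction from 0 to 2791 around 8.

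For Pax5 the sign changed in ndLN under the Wald test (2.13), lanes (1.47) and the legacy fit (1.45), in tdLN under the Wald test (0.67) and the legacy fit (0.073), and between nodes in SSMs on lane 3 (0.39). On lane 4 it changed for Ebf1 in tdLN (-0.06), Cd22 between nodes in MSMs (-0.07) and the Ms4a1 interaction (-0.14). A fit that leaves out a library assumes that the lone one of its group varies like the other groups, and the fit without MSMs of ndLN pool 2 was singled out after seeing the data. With a library left out, these log2 fold changes crossed 0. In ndLN they were Cd79a -1.10 to 0.30, Pax5 -1.40 to 2.41 and Ebf1 -1.27 to 0.69. In tdLN they were Ebf1 -0.70 to 1.01. Between nodes in SSMs they were Pax5 -2.91 to 0.90 and Blnk -0.47 to 0.084. Between nodes in MSMs they were Cd79b -0.28 to 0.74, Btk -0.001 to 0.20 and Cd22 -0.57 to 0.67. In the interaction they were Ms4a1 -0.40 to 0.56, Pax5 -3.63 to 0.18 and Ebf1 -0.62 to 1.58.
At these depths the limit lies in Pax5 and in Cr2 of SSMs from ndLN, with at most 27 and 5 reads.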
